A study of Mus musculus with 15 samples.

Results

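The genes described here are 9 genes of the repair and translesion synthesis that follow DNA deamination in antibody genes: Polh, Hmces, Neil1, Ung, Msh6, Exo1, Apex1, Apex2 and Rev1. They were chosen by symbol, with earlier results of these data known, so shares of all genes set beside counts of the 9 are a description only. Each was measured by 1 probe set that carries that symbol alone, so all 9 of 9 are covered, out of 19938 genes tested. Gene expression was measured on whole-transcript arrays in germinal centre B cells sorted from the spleens of female mice on day 10 after immunization. There were 4 arrays of dark zone cells of high affinity (Dzhi), 4 of dark zone cells of low affinity (Dzlo), 3 of light zone cells of high affinity (Lzhi) and 4 of light zone cells of low affinity (Lzlo). In every group the cells were SwHEL B cells, which carry a knocked-in receptor for hen egg lysozyme and the congenic marker CD45.1. They had been moved into C57BL/6J recipients carrying CD45.2, which were then given sheep red blood cells coupled to HEL3x, a mutant of hen egg lysozyme. Donor cells that were IgG1+ and low in CD38 were sorted as dark zone cells by high CXCR4 and low CD86, and as light zone cells by the opposite pattern. All groups therefore hold class-switched cells from B cells that started with 1 knocked-in receptor, and the labels do not say whether each array came from separate mice or from pools. P-values thus measure the spread between these samples, which may in part be technical.

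Somatic hypermutation takes place mainly in dark zone cells, where cytosine in antibody genes is deaminated to uracil. The uracil DNA glycosylase UNG removes the uracil and leaves an abasic site, which the endonucleases APEX1 and APEX2 can nick, which HMCES can bind covalently in single-stranded DNA, and across which the translesion polymerase REV1 can insert a cytosine. Alternatively, MSH6, as part of a heterodimer, recognises the uracil as a mismatch, the exonuclease EXO1 removes the strand around it, and polymerase eta, encoded by Polh, fills the gap with errors at A and T bases. NEIL1 is a DNA glycosylase known for removing oxidised bases.

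Hmces was the only gene of the 9 that passed the test between zones. Polh and Neil1, with differences of similar size, missed the threshold there and passed with the experiment of each array in the fit. Over 20 alternative settings Hmces passed in 18, Polh in 9 and Neil1 in 3, and the other 6 genes in none of them. Values are log2 RMA values, a difference is dark zone minus light zone averaged over both affinities, and its error is the standard error in 1 limma fit to all 15 arrays. Hmces was higher in dark zone cells by 0.82 ± 0.10, which is 1.77-fold, and passed at an adjusted p of 0.00324. The difference of Polh was 0.83 ± 0.17, or 1.77-fold, with an adjusted p of 0.101 in limma. That of Neil1 was 0.70 ± 0.22, or 1.62-fold, with an adjusted p of 0.534. Thus 1 of the 9 genes passed at an adjusted p under 0.05, in the direction of higher in the dark zone, where 0.0702% of all genes passed. No member passed in the other direction, where 0.0853% of all genes did.

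The sample descriptions carry an experiment code, merged here into 4 experiments named A to D, and arrays of the same code deviated together. With this code as a block in the limma fit, the zone difference was 0.91 ± 0.08 for Polh (adjusted p = 0.00103), 0.82 ± 0.08 for Hmces (adjusted p = 0.0018) and 0.64 ± 0.12 for Neil1 (adjusted p = 0.0474). All 3 then passed as higher in dark zone cells, where 0.201% of all genes did, and again none of the 9 passed as lower, where 0.251% did. What the code marks is not stated in the labels, and code B is written differently on dark zone and light zone arrays. Without the arrays of experiment B, a choice made after seeing the data, 0 of all genes passed in limma, so none of the 9 did (Hmces 0.77, adjusted p = 0.142). With the block and without experiment B, Polh passed at 0.93 (adjusted p = 0.0461) and Hmces stood at 0.78 (adjusted p = 0.0927).

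**Figure D1:**
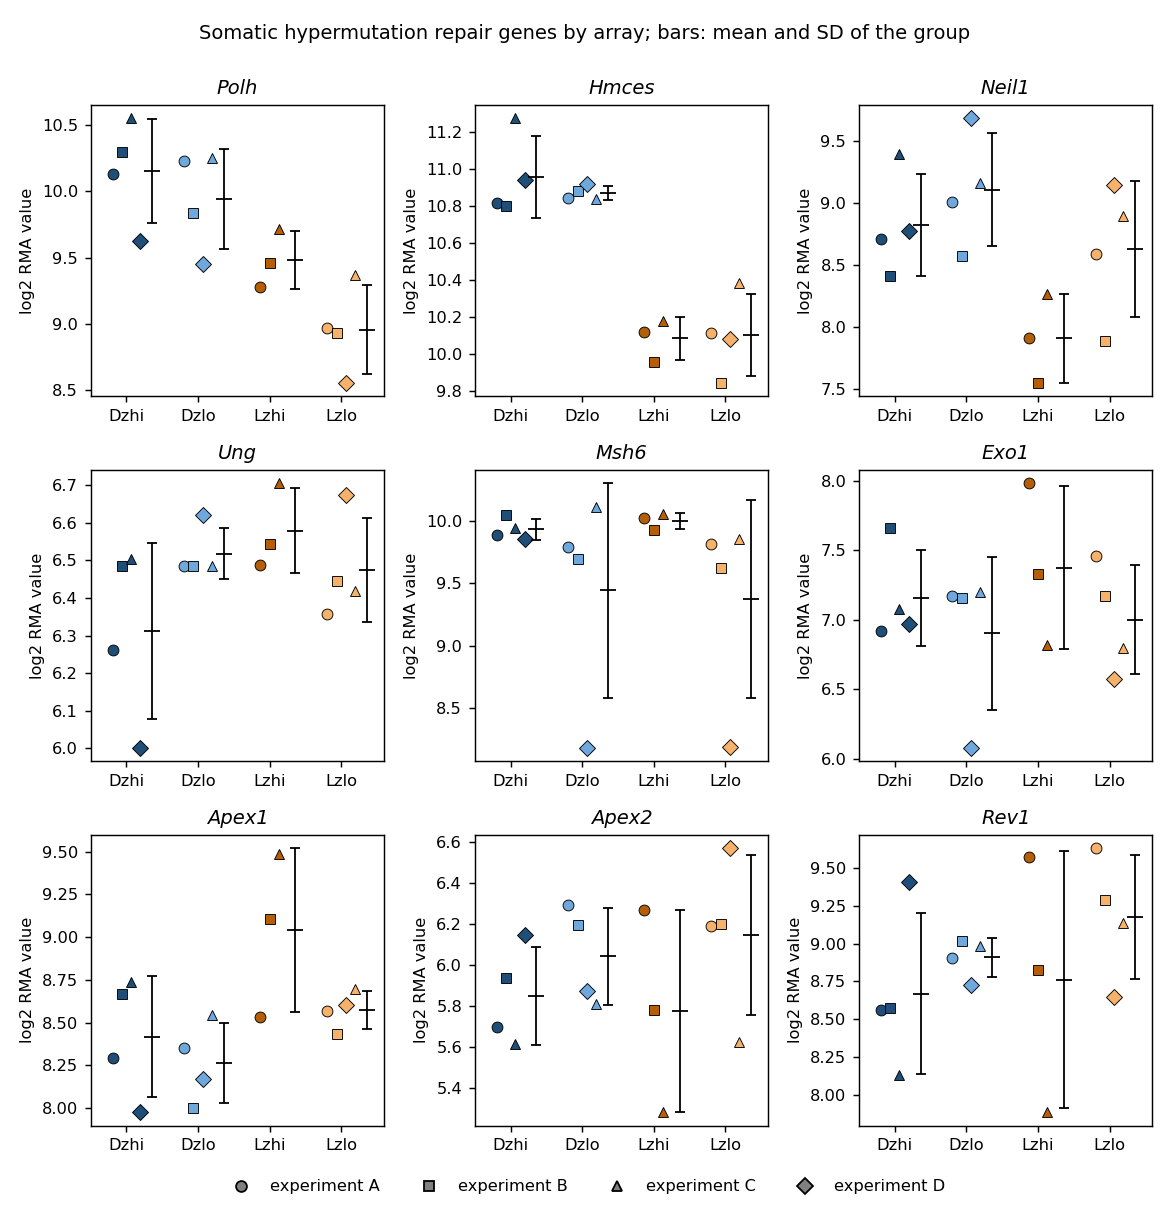
Log2 RMA value of each gene in each of the 15 arrays, in panels with axes of their own, by group (Dzhi, Dzlo, Lzhi, Lzlo); the marker shape gives the experiment and the bars the mean and SD of the group. The dark zone arrays of Hmces all lie above its light zone arrays, and the low-affinity arrays of experiment D stand far below the others for Msh6.

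The promoters of Hmces, Polh and Neil1 are shown because these 3 genes passed between zones, with or without the block, all in the same direction. Each sequence holds the 250 bases before the annotated start from RefSeq on build GRCm38.p6, read 5′ to 3′ on the strand of the gene, and capitals mark the reverse complement of the E-box CAGGTG. The Hmces sequence lies at chr6:87913726-87913975 on the + strand, the Polh sequence at chr17:46202642-46202891 on the - strand and the Neil1 sequence at chr9:57148306-57148555 on the - strand.
Hmces: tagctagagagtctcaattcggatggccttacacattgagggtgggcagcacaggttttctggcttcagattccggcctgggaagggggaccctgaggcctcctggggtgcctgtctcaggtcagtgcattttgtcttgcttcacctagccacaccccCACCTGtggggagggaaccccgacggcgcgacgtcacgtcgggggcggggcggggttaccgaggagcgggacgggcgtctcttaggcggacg
Polh: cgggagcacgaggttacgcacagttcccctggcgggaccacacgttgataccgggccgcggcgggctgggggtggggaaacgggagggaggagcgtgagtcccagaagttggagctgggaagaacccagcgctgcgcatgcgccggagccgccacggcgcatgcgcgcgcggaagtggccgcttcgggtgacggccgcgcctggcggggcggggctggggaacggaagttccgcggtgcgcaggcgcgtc
Neil1: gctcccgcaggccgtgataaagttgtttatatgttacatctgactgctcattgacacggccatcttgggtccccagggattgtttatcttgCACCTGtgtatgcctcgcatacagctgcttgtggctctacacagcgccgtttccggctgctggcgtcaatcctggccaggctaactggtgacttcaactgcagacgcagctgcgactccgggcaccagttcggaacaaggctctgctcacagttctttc
The share of G and C was 63.6% for Hmces, 73.2% for Polh and 54.8% for Neil1. CAGGTG, the E-box bound by E proteins of the basic helix-loop-helix family, was searched on both strands and was found in Hmces, starting 92 bases before the gene's start, and in Neil1, 159 bases before it. Of 32851 promoter windows of the same length, 17.2% hold it. The E2F-type motif TTTNNCGC, found in 4.28% of windows, was in none of the 7 promoters matched among the 9 genes, which do not include Exo1 and Apex2. The motif CCAAT, found in 33.8% of windows, was in the promoters of Msh6 and Apex1, on the reverse strand in Msh6. These matches are of letters in a window and say nothing of binding.

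Before the single genes, the arrays were checked against their labels. Cd86, by which cells were sorted, was lower in dark zone arrays by 1.04 ± 0.11 on the log2 scale (adjusted p = 0.00255 in limma), and Cxcr4 was higher by 0.69 ± 0.16 (adjusted p = 0.152, and 0.0386 with the experiment block). The mean level of the 8 of 11 listed germinal centre B cell markers that were measured lay between 10.09 and 10.33 in dark zone arrays and between 10.05 and 10.30 in light zone arrays. Of these 8, only Gcsam passed between zones, and only with the experiment block (adjusted p = 0.0169). It was higher in dark zone cells by 0.82 ± 0.24 in limma (adjusted p = 0.433). Between affinities 1 of the 8 lay higher in high-affinity cells and 7 lower, and none passed. The low-affinity arrays of experiment D, Dzlo replicate 3 and Lzlo replicate 3, stood apart. The mean level of 10 of 10 neutrophil markers was 8.12 in Dzlo replicate 3 and 9.33 in Lzlo replicate 3, against 5.21 to 6.79 in the other 13 arrays. Their mean levels of 9 of 11 T cell markers were 5.78 and 6.92, against 4.92 to 6.17, those of 11 of 11 myeloid markers 5.76 and 6.27, against 4.92 to 5.62, and those of 8 of 8 NK cell markers 5.50 and 6.43, against 4.27 to 5.15. Most plasma cell markers lay higher in high-affinity cells and in dark zone cells. Of 10 such markers 9 lay higher in high-affinity cells, with a median difference of 0.24, where 50.3% of all genes did. With Dzlo replicate 3 and Lzlo replicate 3 left out, 7 of the 10 did, with a median of 0.22, against 57.4% of all genes. Over all arrays the median was 0.28 in the dark zone (9 of 10 higher) and 0.08 in the light zone (8 of 10). None of the 10 passed between affinities. The mean level of the 10 markers was 7.32 to 7.89 in dark zone and 7.09 to 7.59 in light zone arrays. Between zones 9 of the 10 lay higher in dark zone cells, with a median difference of 0.28, where 52% of all genes did. None of the 10 passed between zones in limma, and Jchain, which encodes the joining chain of secreted IgM and IgA, stood at 1.05 ± 0.29 (adjusted p = 0.35). With the experiment block Jchain was the only one of the 10 to pass, at 1.17 ± 0.20 (adjusted p = 0.0272), while Irf4, a regulator of plasma cell formation, was -0.74 ± 0.17 (adjusted p = 0.165 in limma). RMA values hold no 0, so no marker can be called absent. In bulk RNA of this kind, fewer cells of a type and less RNA per cell cannot be told apart, and the part of other cells in the results below was not tested except where values without these arrays are given.

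Ung, the glycosylase that removes uracil from DNA, did not differ between zones beyond its spread. Its values were 6.26, 6.48, 6.50 and 6.00 in Dzhi arrays 1 to 4 and 6.48, 6.48, 6.62 and 6.48 in Dzlo arrays. They were 6.49, 6.54 and 6.71 in Lzhi arrays 1, 2 and 4 and 6.36, 6.44, 6.67 and 6.42 in Lzlo arrays. All groups overlapped, and Dzhi replicate 4 was the lowest array of all. The zone difference was -0.11 ± 0.09, with a 95% interval of -0.30 to 0.08. The same value, 6.4844, was returned for 4 arrays of Ung, 3 of them Dzlo arrays, and 40.1% of all genes have such tied values.

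Neil1 was higher in the dark zone in each of the 7 pairs of arrays that share an experiment and an affinity. Its values were 8.70, 8.41, 9.39 and 8.77 in Dzhi arrays and 7.91, 7.54 and 8.26 in Lzhi arrays, so the high-affinity groups did not overlap. They were 9.01, 8.57, 9.68 and 9.16 in Dzlo arrays, against 8.59, 7.88, 9.14 and 8.89 in Lzlo arrays, which overlapped. Within experiments the difference was 0.80, 0.87 and 1.13 for high affinity in A, B and C, and 0.42, 0.69, 0.27 and 0.54 for low affinity in A, B, C and D. The groups ran, from high to low, Dzlo (9.10 ± 0.46), Dzhi (8.82 ± 0.41), Lzlo (8.63 ± 0.55) and Lzhi (7.91 ± 0.36, SD, n = 4 in each group except Lzhi with 3), and every neighbouring pair in this order overlapped. In each of the 4 groups the array of experiment B was the lowest.

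Apex1, the main abasic site endonuclease, was below its light zone level in 7 of 7 pairs without passing the test. Its values were 8.30, 8.67, 8.74 and 7.97 in Dzhi arrays, against 8.53, 9.10 and 9.49 in Lzhi arrays. They were 8.35, 8.0, 8.17 and 8.54 in Dzlo arrays, against 8.57, 8.43, 8.60 and 8.70 in Lzlo arrays. The groups overlapped in both affinities, with Dzlo the lowest group at 8.27 ± 0.23 and Lzhi the highest at 9.04 ± 0.48 (SD). The zone difference was -0.47 ± 0.15 in limma, with an unadjusted p of 0.00858 and an adjusted p of 0.597, and -0.44 ± 0.13 with the experiment block (adjusted p = 0.281). At an unadjusted p under 0.05, Apex1 was the only one of the 9 genes below 0, as were 2.47% of all genes, and 3 of the 9 were above 0, as were 1.91%.

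Apex2, a related endonuclease and exonuclease, showed no zone difference beyond its spread, at -0.02 ± 0.17 with a 95% interval of -0.38 to 0.34. Its group means were 5.85 ± 0.24 in Dzhi and 6.04 ± 0.24 in Dzlo arrays, against 5.78 ± 0.49 in Lzhi and 6.15 ± 0.39 in Lzlo arrays (SD). Single arrays ran from 5.28 to 6.57, and the dark zone means lay between the light zone means. In within-experiment pairs 4 were above 0 and 3 below.

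Hmces, which binds abasic sites in single-stranded DNA, was the only gene of the 9 whose dark zone and light zone arrays did not overlap. Its values were 10.82, 10.80, 11.27 and 10.94 in Dzhi arrays and 10.84, 10.88, 10.92 and 10.84 in Dzlo arrays. They were 10.12, 9.95 and 10.18 in Lzhi arrays and 10.11, 9.84, 10.08 and 10.38 in Lzlo arrays. The lowest of the 8 dark zone arrays, 10.80, lay above the highest of the 7 light zone arrays, 10.38, a separation without overlap that 0.0953% of all genes showed in this direction. By its p it ranked 3 of 19938 genes, and its 95% interval ran from 0.62 to 1.03. The within-experiment differences ran from 0.45 in the low-affinity pair of experiment C to 1.10 in the high-affinity pair of the same experiment. The groups of the same zone did not differ beyond their spread, with means of 10.96 ± 0.22 in Dzhi and 10.87 ± 0.04 in Dzlo, and 10.08 ± 0.11 in Lzhi and 10.10 ± 0.22 in Lzlo (SD). Hmces passed on leaving out each array in turn, with a difference between 0.77 and 0.87, and without the 2 D arrays of low affinity it was 0.81 ± 0.11 (adjusted p = 0.0162).

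**Figure D2:**
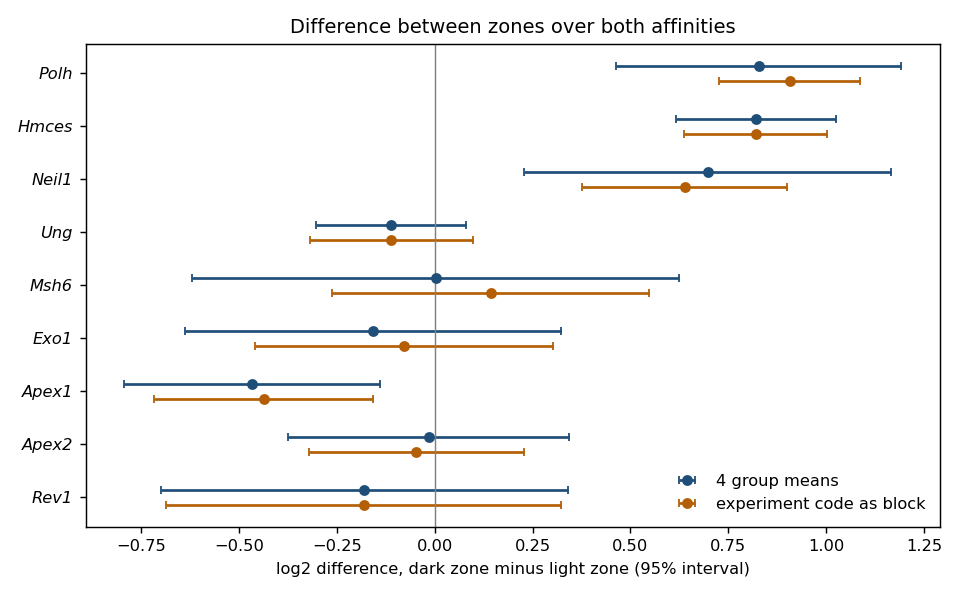
Zone difference of each gene on the log2 scale, dark zone minus light zone over both affinities, with its 95% interval, from 4 group means (blue) and with the experiment code as a block (orange). The intervals of Polh, Hmces and Neil1 lie above 0 and that of Apex1 below 0, while those of Ung, Msh6, Exo1, Apex2 and Rev1 include 0.

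Msh6, the mismatch recognition gene, did not differ between zones beyond its spread, and its low-affinity arrays of experiment D were far below the rest. Its values were 9.89, 10.05, 9.94 and 9.86 in Dzhi arrays and 9.79, 9.69, 8.18 and 10.11 in Dzlo arrays. They were 10.02, 9.93 and 10.05 in Lzhi arrays and 9.82, 9.62, 8.19 and 9.86 in Lzlo arrays. The replicate 3 arrays of both low-affinity groups, the same arrays that stood apart in neutrophil markers, were at 8.18 and 8.19, while the other 13 arrays lay between 9.62 and 10.11. The zone difference was 0.00 ± 0.29 over all arrays, with a 95% interval of -0.62 to 0.63, and 0.02 ± 0.09 without those arrays. Both arrays lay below all 13 others by at least 1 on the log2 scale for 160 genes, or 0.802% of all, and Msh6 was the only such gene of the 9.

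Exo1, the exonuclease that acts after mismatch recognition, also had its lowest values in those arrays. It had 6.92, 7.66, 7.08 and 6.97 in Dzhi arrays and 7.17, 7.16, 6.08 and 7.20 in Dzlo arrays, against 7.98, 7.33 and 6.82 in Lzhi arrays and 7.46, 7.17, 6.57 and 6.80 in Lzlo arrays. Both low-affinity arrays of experiment D lay below all 13 others for Exo1, as for 6.61% of all genes, and the groups overlapped throughout. The pairs within experiments ran from -1.07 in the high-affinity pair of A to 0.40 in the low-affinity pair of C. The zone difference was -0.16 ± 0.22, with a 95% interval of -0.64 to 0.32.

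Polh, which encodes the polymerase that writes mutations at A and T bases, was higher in the dark zone in 7 of 7 pairs by the experiment code. Its values were 10.13, 10.30, 10.55 and 9.62 in Dzhi arrays, against 9.28, 9.46 and 9.71 in Lzhi arrays. They were 10.23, 9.84, 9.45 and 10.25 in Dzlo arrays, against 8.97, 8.93, 8.55 and 9.37 in Lzlo arrays. The low-affinity groups did not overlap, while Dzhi replicate 4, at 9.62, lay below the highest Lzhi array, Lzhi replicate 4 at 9.71. By the experiment code Dzhi replicate 4 has no Lzhi partner. By title number its partner is Lzhi replicate 4, and in that pair Polh was lower in the dark zone. Which pairing holds is not stated in the labels. Within experiments the difference was 0.86, 0.84 and 0.84 for high affinity in A, B and C, and 1.26, 0.90, 0.88 and 0.90 for low affinity in A, B, C and D. The 7 pairs thus lay between 0.84 and 1.26, with a median of 0.88, although the dark zone arrays themselves ranged from 9.45 to 10.55. In each group with an array of experiment D, that array was the lowest.

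The groups of Polh ran, from high to low, Dzhi (10.15 ± 0.39), Dzlo (9.94 ± 0.38), Lzhi (9.48 ± 0.22) and Lzlo (8.96 ± 0.34, SD), and each neighbouring pair overlapped. Polh passed on leaving out 1 array only without Dzhi replicate 4, at 0.92 (adjusted p = 0.045), and without the 2 D arrays of low affinity the difference was 0.84 ± 0.15 (adjusted p = 0.0599). With the level of the neutrophil markers as a covariate, chosen after seeing the data, it was 0.82 ± 0.15 and passed (adjusted p = 0.0425).

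Rev1, a translesion polymerase that also serves as a scaffold for other such polymerases, did not differ between zones beyond its spread. It had 8.56, 8.57, 8.13 and 9.41 in Dzhi arrays and 8.90, 9.02, 8.73 and 8.99 in Dzlo arrays, against 9.58, 8.82 and 7.88 in Lzhi arrays and 9.63, 9.29, 8.65 and 9.14 in Lzlo arrays. The Lzhi arrays ran from 7.88 to 9.58 and had the widest SD of the 4 groups, at 0.85. The zone difference was -0.18 ± 0.24, with a 95% interval of -0.70 to 0.34, and 5 of 7 pairs were below 0.

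**Figure D3:**
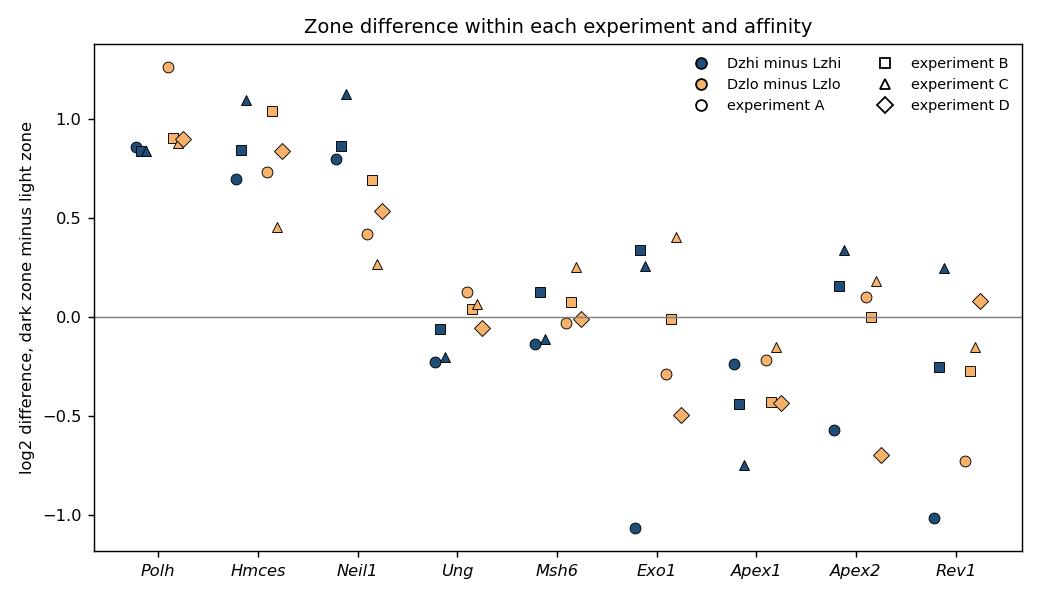
Log2 difference, dark zone minus light zone, in each pair of arrays of 1 experiment, by the experiment code, and 1 affinity. Dzhi minus Lzhi is in blue (3 pairs) and Dzlo minus Lzlo in orange (4 pairs). All 7 pairs lie above 0 for Polh, Hmces and Neil1 and below 0 for Apex1, and Polh pairs lie between 0.84 and 1.26.

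Within high affinity alone, Dzhi against Lzhi, none of the 9 genes passed in limma, where 0 genes passed as higher in dark zone cells and 0.015% of all genes passed in either direction. At an unadjusted p under 0.05, 559 genes differed. Hmces stood at 0.87 ± 0.14 (adjusted p = 0.0911), Neil1 at 0.91 ± 0.32, Polh at 0.67 ± 0.25 and Apex1 at -0.62 ± 0.22 (adjusted p = 0.999 for each of these 3). With the experiment block, Hmces (0.87 ± 0.12, adjusted p = 0.0348) and Polh (0.83 ± 0.12, adjusted p = 0.0469) passed as higher, where 0.0201% of all genes did. Arrays did not overlap for Hmces and Neil1, as for 1.85% of all genes in this direction.

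Within low affinity, Dzlo against Lzlo, none of the 9 passed either, with 0.01% of all genes passing in either direction and 703 at an unadjusted p under 0.05. Polh stood at 0.99 ± 0.23 (adjusted p = 0.353), Hmces at 0.77 ± 0.13 (adjusted p = 0.08) and Neil1 at 0.48 ± 0.30 (adjusted p = 1). With the experiment block, Polh (adjusted p = 0.00864) and Hmces (adjusted p = 0.0279) passed as higher, where 0.0652% of all genes did, at the same differences. Arrays did not overlap for Polh and Hmces, as for 0.918% of all genes.

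The zone difference was also compared between affinities, and this interaction passed for none of the 9 genes and for 0 of 19938 genes, with 266 genes at an unadjusted p under 0.05. The zone difference at high minus that at low affinity was 0.44 ± 0.44 for Neil1, -0.32 ± 0.34 for Polh and 0.11 ± 0.19 for Hmces. The 95% interval of this quantity was -0.50 to 1.37 for Neil1, -1.05 to 0.41 for Polh and -0.30 to 0.52 for Hmces, so for Hmces it leaves out values as large as the zone difference itself, and for Neil1 and Polh it does not. With the experiment block the interaction of Polh was -0.16 ± 0.16, with an interval of -0.52 to 0.20 that leaves out values as large as its zone difference of 0.91. That of Neil1 was 0.32 ± 0.24 with the block, and its interval of -0.20 to 0.84 still holds its zone difference of 0.64.

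Affinity gave no call in these genes. Between high and low affinity over both zones, 0 of 9 genes and 0 of all genes passed in limma, and 857 genes had an unadjusted p under 0.05 (1214 with the experiment block, again with 0 passing). High minus low affinity was 0.37 ± 0.17 for Polh, -0.50 ± 0.22 for Neil1 and 0.56 ± 0.29 for Msh6 (adjusted p = 0.999 for each). Without the 2 D arrays of low affinity these were 0.22 ± 0.15 for Polh, -0.32 ± 0.21 for Neil1 and 0.15 ± 0.09 for Msh6.

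In the light zone, Lzhi against Lzlo, 0 genes passed and 797 had an unadjusted p under 0.05. Polh was higher in Lzhi in 3 of 3 pairs, by 0.31, 0.53 and 0.34 in experiments A, B and C, with a fitted difference of 0.53 ± 0.25 and overlapping groups. Neil1 was lower in Lzhi in 3 of 3 pairs, by -0.68, -0.34 and -0.62, with a fitted difference of -0.72 ± 0.32. Msh6 lay higher in every Lzhi array than in any Lzlo array, as 2.26% of all genes did, with a fitted difference of 0.63 ± 0.43 that was 0.24 ± 0.13 without the 2 D arrays of low affinity. The remaining fitted differences were 0.47 ± 0.22 for Apex1, 0.38 ± 0.33 for Exo1, 0.10 ± 0.13 for Ung, -0.02 ± 0.14 for Hmces, -0.37 ± 0.25 for Apex2 and -0.41 ± 0.36 for Rev1. Single arrays moved these values. On leaving out 1 array Exo1 ran from 0.0732 without Lzhi replicate 1 to 0.66 without Lzhi replicate 4, and Rev1 ran from -0.82 to 0.0239 on leaving out the same arrays. Without Lzhi replicate 4 Apex2 was -0.12 and Apex1 0.24, and without Lzhi replicate 1 they were -0.62 and 0.72. Ung ran from 0.0413 without Lzhi replicate 4 to 0.17 without Lzlo replicate 3.

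In the dark zone, Dzhi against Dzlo, 0 genes passed and 320 had an unadjusted p under 0.05, and the 9 genes lay between -0.28 ± 0.30 for Neil1 and 0.49 ± 0.39 for Msh6. Both ends rest on the low-affinity arrays of experiment D, without which Neil1 was -0.0916 ± 0.28 and Msh6 0.0689 ± 0.12. Without them Polh was 0.0449, against 0.21 over all arrays, and Exo1 was -0.0192, against 0.26.

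Transcripts of several DNA repair genes are known to follow the cell cycle, so the levels of cycle genes were set beside these results. The mean level of 23 genes of G2/M and mitosis was 9.20 in Dzhi, 9.08 in Dzlo, 9.0 in Lzhi and 8.29 in Lzlo, with a range of 8.64 to 9.56 in dark zone and 7.52 to 9.25 in light zone arrays. Of the 23, 22 lay higher in dark zone cells, with a median difference of 0.54, where 52% of all genes did. In limma 0 of the 23 passed, where 0.0702% of all genes passed as higher, and 15 had an unadjusted p under 0.05. With the experiment block 5 passed as higher, where 0.201% of all genes did, namely Kif20a, Cenpa, Cdc20, Cenpf and Ccnb2, all genes of mitosis, named after their values were seen because they are few. Without the 2 D arrays of low affinity 21 of the 23 lay higher, with a median of 0.46. The mean level of 27 genes of G1/S and DNA replication was 8.82 in dark zone and 8.85 in light zone arrays, but 8.96 in Dzhi and 9.01 in Lzhi against 8.69 in Dzlo and 8.72 in Lzlo.

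With both levels as covariates in limma, an alternative chosen after seeing the data, the zone difference of Neil1 was 1.40 ± 0.11 (adjusted p = 0.000271), and it was 1.27 ± 0.12 within high and 1.54 ± 0.15 within low affinity. That of Hmces was 1.00 ± 0.10 (adjusted p = 0.00219) and that of Polh 0.74 ± 0.15 (adjusted p = 0.0721). Under no alternative run did more than 90 genes, or 0.451% of all, pass between zones. None of the other 6 genes passed with these covariates. Msh6 was -0.56 ± 0.27 (adjusted p = 0.398), Exo1 -0.55 ± 0.25 (adjusted p = 0.353) and Rev1 -0.49 ± 0.33 (adjusted p = 0.555), against 0.00, -0.16 and -0.18 with no covariate. Apex1 was -0.37 ± 0.19, Apex2 -0.0766 ± 0.22 and Ung -0.0131 ± 0.12. The affinity difference of Polh over both zones was then -0.07 ± 0.15 and that of Msh6 -0.04 ± 0.27, while that of Neil1 was -0.42 ± 0.11 (adjusted p = 0.329). The G2/M covariate itself differed between zones. It was lowest in Lzlo replicate 3, at 7.52, an array that stood apart in neutrophil markers and where Neil1 was at 9.14. Values with these covariates and without that array are not given here.

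**Figure D4:**
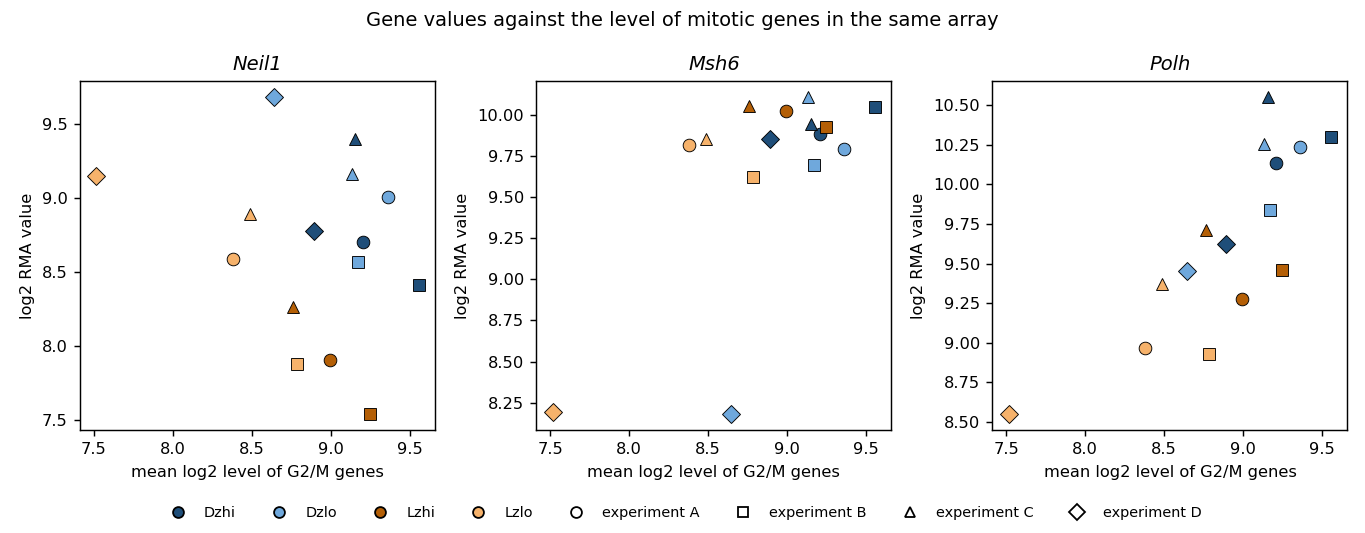
Log2 RMA value of Neil1, Msh6 and Polh in each of the 15 arrays against the mean log2 level of 23 genes of G2/M and mitosis in the same array, with groups in colour and experiments by marker shape. Within each experiment the dark zone arrays of Neil1 lie above the light zone arrays of the same affinity, and for Msh6 the low-affinity arrays of experiment D lie at 8.18 and 8.19.

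The other genes of these pathways were followed from lists of measured genes. None of the genes in the 5 lists passed between zones, in limma or with the experiment block. Of 19 other base excision repair genes, 11 lay above 0 and 8 below, with a median of 0.03, from -0.15 ± 0.23 for the flap endonuclease gene Fen1 to 0.41 ± 0.17 for Mbd4, a glycosylase of mismatched thymine and uracil. Of 17 other mismatch repair genes, 5 lay above 0 and 12 below, with a median of -0.10, from -0.46 ± 0.26 for Pold3, a subunit of DNA polymerase delta, to 0.57 ± 0.16 for Msh3 (adjusted p = 0.352). Msh3 forms the other mismatch recognition complex, which acts on longer loops.

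Of 16 other translesion synthesis genes, 6 lay above 0 and 10 below, with a median of -0.06. They ran from -0.50 ± 0.29 for Polq, encoding polymerase theta, to 0.56 ± 0.21 for Poli, encoding polymerase iota. Of 14 genes linked to the targeting of mutation, 8 lay above 0 and 6 below, with a median of 0.03, from -0.18 ± 0.19 for Exosc3, a subunit of the RNA exosome, to 0.31 ± 0.31 for the stress gene Gadd45b. Of 16 genes of double-strand break and class switch repair, 7 lay above 0 and 9 below, with a median of -0.02, from -0.41 ± 0.21 for the ubiquitin ligase gene Rnf168 to 0.83 ± 0.35 for Lig4, the ligase of end joining (adjusted p = 0.961). Over all genes tested 52% lay above 0 with a median of 0.01, and of the 9 genes 4 lay above 0 with a median of -0.02.

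Between affinities more genes of some lists lay above 0 than below, in both zones, and none of the genes in these lists passed. In the dark zone, Dzhi against Dzlo, 15 of the 17 mismatch repair genes lay higher in Dzhi, with a median of 0.26, 12 of the 16 translesion genes, with a median of 0.18, and 13 of the 16 genes of double-strand break and class switch repair, with a median of 0.24. There 50.4% of all genes lay above 0, with a median of 0.00148. In the light zone, Lzhi against Lzlo, 15 of the 17 mismatch repair genes lay higher in Lzhi, with a median of 0.26, 13 of the 16 translesion genes, with a median of 0.26, and 12 of the 16 break repair genes, with a median of 0.25. Of the 19 base excision repair genes 10 lay higher in Lzhi, with a median of 0.03, and 6 of the 14 targeting genes, with a median of -0.03, where 49.9% of all genes did with a median of -0.000346.

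The median difference of 23 G2/M genes between affinities was 0.04 in the dark zone and 0.69 in the light zone, and that of 10 neutrophil markers was -0.05 in the dark zone and -1.21 in the light zone. The median of 27 genes of G1/S and DNA replication was 0.25 in the dark zone and 0.28 in the light zone. Their part in the list values was not tested. Without the 2 D arrays of low affinity the medians were lower. In the dark zone they were 0.16 for mismatch repair (12 of 17 above 0), 0.04 for translesion (8 of 16) and 0.06 for break repair (11 of 16), where 53.9% of all genes lay above 0. In the light zone they were 0.16 for mismatch repair (13 of 17), 0.10 for translesion (11 of 16) and 0.14 for break repair (10 of 16), where 55.9% of all genes did. In the low-affinity arrays of experiment D the mean level of the mismatch repair list was 8.27 and 8.21, against 8.60 to 9.05 in the other 13 arrays.

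**Figure D5:**
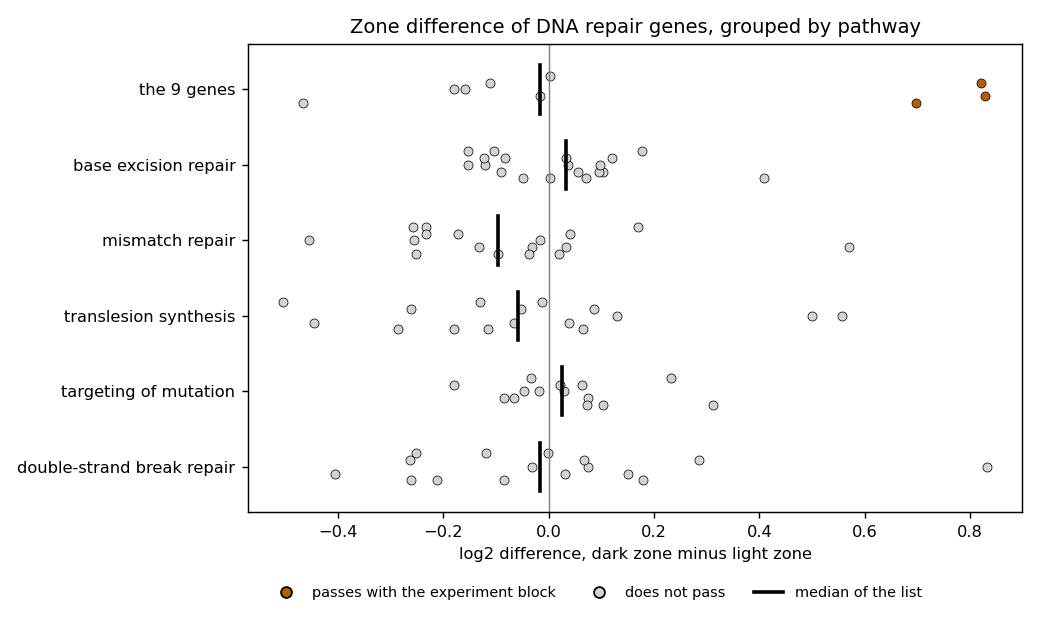
Zone difference on the log2 scale, dark zone minus light zone, of the 9 genes and of the other genes of 5 lists (1 point a gene; bars mark the median of each list), with genes that pass with the experiment block in orange. Polh, Hmces and Neil1 are the only genes that pass, and the list medians lie between -0.10 and 0.03.

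For the genes that passed in the zone comparison, with or without the block, the genes most like them were found by Pearson's r of log2 values over the 15 arrays, which share groups, experiments and processing, so r is a description only. Polh was most like Cenpa, the centromeric histone (r = 0.941), the mitotic gene Cdca8 (0.927), the chemokine-scavenging receptor gene Ackr4 (0.912), the myosin light chain gene Myl4 (0.899) and the fumarase gene Fh1 (0.898). Hmces was most like the chromatin remodelling gene Smarca4 (0.912), Serinc5 (0.890), Mprip (0.888), Dcaf12 (0.886) and the dark zone sort marker Cxcr4 (0.876). Neil1 was most like Inpp5k (0.913), Trp53i11 (0.897), Natd1 (0.895), Ccm2 (0.890) and Mtmr14 (0.888). These 3 sets of 5 genes had no gene in common. Between the 3 genes themselves r was 0.790 for Polh with Hmces, 0.689 for Hmces with Neil1 and 0.267 for Polh with Neil1.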

How the data were processed

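Each of the 15 arrays held amplified RNA of 1 sorted sample, per the labels' protocols. The deposited table gives log2 values of 28853 probe sets, which the authors made with RMA, a method that combines background correction, quantile normalization and summary of the probes of a set. RMA and build mm8 come from the submitters' processing notes. No software version is given in the sources read here. RMA narrows the differences of dim probe sets, and amplifying little RNA widens the spread between samples. The number of arrays limits the precision.

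The platform annotation gave 21789 probe sets 1 gene, 1621 several and 5443 none. Of the first, 21698 matched the reference table by Entrez ID. For each of 19938 genes the probe set with the highest mean was kept, with no filter on dim genes. Array medians lay between 5.57 and 5.74, and no pair of arrays correlated above 0.9933.

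Sample titles gave the groups and replicate numbers. In R 4.3.3, limma 3.58.1 (lmFit, eBayes) was run on 4 group means with 11 residual degrees of freedom, or 8 with the experiment block. Benjamini-Hochberg adjustment ran over all genes, with a threshold of 0.05. The steps were tested on simulated data. Figures were drawn with matplotlib 3.10.9.

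The experiment code of the sample descriptions takes 5 written forms, merged into 4, and the title number does not follow it in experiments C and D. As a check of pairing, deviations from the group means were correlated between arrays of different groups. The mean was 0.288 for 21 pairs with the same code (16 above 0.1), -0.082 for 63 pairs with different codes (21 above 0.1), and 0.227 for 21 pairs with the same title number (15 above 0.1). Arrays of the same code thus went together more than others. Not every such pair passed 0.1, and the labels state no block. The block is therefore an alternative here, and its value stands beside the results it changed.

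The 9 genes, the lists and the alternatives were chosen with earlier results of these data known. Of the 214 entries in these lists, 15 had no match and were left out. Named genes are the 9, the highest and lowest difference of each list where none passed, the sort markers, and the 5 genes most like each of the 9 that passed, without predicted genes. Gcsam, Jchain, Irf4 and the mitotic genes that passed with the block are also named. The cycle gene and neutrophil covariates, the fits without experiment B, the centred fit with the block and the list values without the 2 D arrays of low affinity were chosen after seeing the data.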

Additional observations from a re-analysis of the deposited data

Results flagged for a closer look

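Of 27 combinations of a gene and a group of 4 arrays, 3 had an array set off by a gap above 0.829 of the group's range, a limit that chance passes in about 1 in 20 groups. All 3 cases lie in the low-affinity arrays of experiment D, which stood apart in markers of neutrophils. Ung was at 6.62 in Dzlo replicate 3, where the other 3 arrays share the value 6.4844. With such a tie any gap is flagged, and 6.62 lies within the 6.00 to 6.71 of the 13 arrays outside these low-affinity arrays. Msh6 was at 8.19 in Lzlo replicate 3, with the others between 9.62 and 9.86. Exo1 was at 6.08 in Dzlo replicate 3, with the others between 7.16 and 7.20. The part of other cells in these values was not tested.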

How the results depend on the processing

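Between zones 1 of the 9 genes passed (Hmces). The count was 2 with repeated quantile normalization, array weights, the code as written as a block and the code as a random block. It was also 2 with no arrays of experiment D, the neutrophil covariate, and centred medians with the block. With the title number as a block and with the 2 cycle covariates it was 2 as well, in both cases Hmces and Neil1. It was 3 with the experiment code as a replicate block and 0 without experiment B, where 0 of all genes passed. On leaving out 1 array it was between 1 and 2, the second being Polh without Dzhi replicate 4. Within high affinity, where 0 passed, it was 2 with the replicate block or the cycle covariates, and 1 with the random block or at an adjusted p under 0.1. Within low affinity, also 0, it was 2 with the replicate block, and 1 with array weights, the code as written, the title number, the random block, the cycle covariates, the centred block or an adjusted p under 0.1. The count of all genes ran from 0 to 12 within high affinity, against 3 with 4 group means. Within low affinity it ran from 0 to 30, against 2. With the replicate block 0.0552% of all genes passed within high and 0.15% within low affinity. Over all genes the zone count of 31 lay between 0 without experiment B and 90 with the replicate block. It was 7 with that block and without experiment B. None of the 9 genes passed for affinity or for the interaction under any alternative run.

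The sign of these values changed under an alternative, and the cause was not tested. The zone difference of Msh6 was -0.00250 with centred medians, -0.0153 with the neutrophil covariate, -0.0359 without experiment B and -0.56 with the cycle covariates. On leaving out 1 array it ran from -0.19 to 0.21, that of Apex2 from -0.14 to 0.11 and that of Rev1 from -0.40 to 0.0233. Apex2 between zones was 0.0835 without the 2 D arrays of low affinity and 0.0339 without experiment D. With the cycle covariates, the affinity difference was -0.0695 for Polh and -0.0429 for Msh6 over both zones. In the light zone it was -0.00499 for Polh, -0.32 for Msh6 and -0.22 for Exo1. In the dark zone it was -0.13 for Polh, -0.0658 for Hmces, -0.0609 for Apex1 and 0.00834 for Apex2. The interaction was then -0.0502 for Hmces and -0.28 for Neil1. The light zone difference of Hmces was 0.0164 with the title number as a block, and on leaving out 1 array it ran from -0.11 to 0.0720, that of Rev1 from -0.82 to 0.0239. In the dark zone Exo1 was -0.0192 without the 2 D arrays of low affinity and Apex1 -0.0183 without experiment B, with or without the block. On leaving out 1 array the dark zone difference ran from -0.0185 to 0.14 for Hmces and from -0.0192 to 0.35 for Exo1.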
